A study of Mus musculus with 9 samples.

Results

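The transcripts described here are 9 genes of the exocrine pancreas, Ctrb1, Prss2, Try5, Cela2a, Cpa1, Cel, Pnlip, Clps and Gp2, measured in dendritic cells of the lymph nodes beside the mouse pancreas. They were chosen by name, with earlier results of these data known. All were found among the 53458 genes to which the deposited transcripts were summed, of which 36907 had a count above 0 in some library. The study sequenced RNA of conventional type 1 dendritic cells (cDC1), which take up material from tissues and dying cells and present it to cytotoxic T cells. KPC, named in the title of the series, is a mouse model of pancreatic cancer. The 3 groups of 3 libraries in the study are Healthy, PanIN (nodes that drain the precursor lesion, pancreatic intraepithelial neoplasia) and Tumor (nodes draining a tumor). The sources used here give no strain, age, genotype of the Healthy animals or way of isolating the cells. Nothing in the labels tells whether each library is 1 animal or a pool, so the p-values reflect the spread of these libraries alone, part of which may be technical.

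Acinar cells make up most of the pancreas and fill zymogen granules with digestive enzymes that are released into the gut. The proteases among them are made as inactive zymogens: trypsinogens (here Prss2 and Try5) are cut by enteropeptidase in the gut, and the trypsin they release then activates chymotrypsinogen (Ctrb1), proelastase (Cela2a) and procarboxypeptidase (Cpa1). Fat is digested by pancreatic lipase (Pnlip) with its cofactor colipase (Clps) and by the carboxyl ester lipase Cel. Gp2 is no enzyme but the main glycoprotein of the zymogen granule membrane, and it is also a receptor for bacteria on M cells, the antigen-sampling cells of the gut lining. Acinar enzyme genes are switched on by the PTF1 complex, built around Ptf1a and Rbpjl, which binds an E-box and a nearby TC-box.

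The 2 trypsinogen members are closely related copies, and the start of their coding sequences is shown for how much of it they share. The first 72 coding bases of each, from the GENCODE M21 transcripts, are given beside those of the neighbouring gene Try4, with capitals at the bases that differ from Prss2.
Prss2-201: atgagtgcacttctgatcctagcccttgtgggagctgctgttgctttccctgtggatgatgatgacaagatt
Try5-201: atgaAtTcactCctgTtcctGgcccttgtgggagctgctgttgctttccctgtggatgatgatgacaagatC
Try4-201: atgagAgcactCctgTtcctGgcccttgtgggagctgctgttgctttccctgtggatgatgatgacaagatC
Try5 differed from Prss2 at 6 of these bases and Try4 at 5. The run of aspartate codons and the lysine codon at which enteropeptidase cuts, codons 19 to 23, was the same in all of them. Over the whole transcript, 66.0% of the 31-base words of Try5-201 also occurred in other genes, 57.6% in Try4 alone, and the share was 22.5% for Prss2-201. In Cela2a-201 the share was 26.9%, all of it with Ctrc, the gene for chymotrypsin C, which overlaps Cela2a on the same strand. The other 6 members shared 0% of these words with any other gene, although Cel overlaps the antisense gene Gm13381, and Ctrb1 and Clps overlap miRNA genes.

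The promoters of 3 members are shown as examples of groups of libraries that differed in opposite directions. Cel and Prss2 had their highest levels in PanIN and Gp2 its lowest. Ctrb1 was also highest in PanIN, and its promoter is counted below but not shown. Each sequence is the 250 bases before the RefSeq start (GRCm38.p6), written along the gene's strand. Capitals mark E-box letters (CACCTG or its reverse CAGGTG) and TC-box letters (TTTCCC or its reverse GGGAAA).
Cel, minus strand, chr2:28563404-28563653: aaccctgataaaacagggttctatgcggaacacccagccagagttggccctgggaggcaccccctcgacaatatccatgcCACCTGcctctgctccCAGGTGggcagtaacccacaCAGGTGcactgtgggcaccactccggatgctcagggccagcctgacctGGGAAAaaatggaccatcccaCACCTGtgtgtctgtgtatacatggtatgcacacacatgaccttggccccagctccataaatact
Prss2, plus strand, chr6:41521526-41521775: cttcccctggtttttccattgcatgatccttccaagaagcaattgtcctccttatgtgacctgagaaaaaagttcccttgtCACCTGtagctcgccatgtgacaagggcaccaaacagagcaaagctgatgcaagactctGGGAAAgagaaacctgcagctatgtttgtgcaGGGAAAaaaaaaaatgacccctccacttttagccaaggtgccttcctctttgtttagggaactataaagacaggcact
Gp2, minus strand, chr7:119459273-119459522: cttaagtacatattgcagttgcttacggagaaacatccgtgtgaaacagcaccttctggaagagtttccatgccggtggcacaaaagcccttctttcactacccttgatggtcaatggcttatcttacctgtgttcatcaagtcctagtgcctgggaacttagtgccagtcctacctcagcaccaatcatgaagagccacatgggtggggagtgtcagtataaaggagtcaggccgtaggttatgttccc
Counting these letters alone, the Cel window held 4 E-boxes and 1 TC-box, the Prss2 window 1 and 2, and the Gp2 window 0 of either. Among the other 4 of the 7 members with a promoter in the table, Cela2a held 1 of each. Ctrb1 and Cpa1 held 1 TC-box and no E-box of these letters, and Pnlip held 0 of either. Ctrb1, highest in PanIN like Cel and Prss2, thus lacked the E-box letters that both of them held. E-boxes of other letters were not counted, such as the cagctg shortly before the TC-box of Ctrb1 and the cagttg and cacatg of Gp2. Of all 32851 promoter windows of this length, 17.2% held the E-box letters, 21.9% the TC-box letters and 3.61% both. The motifs were chosen after their matches in the members were seen, and a match is a description of the letters only.

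All 9 members were low, while the genes that define cDC1 were abundant. The 10 cDC1 markers summed to between 4200 and 15100 CPM (counts scaled to library size with TMM factors) in every library, and the 9 members to between 3.4 and 15.3 CPM. Libraries held 32150281 to 68934430 estimated counts. Per transcript length, on the TPM scale, the mean level over the 9 libraries was 1.13 for Ctrb1, 0.974 for Gp2, 0.973 for Prss2 and 0.472 for Try5. Clps followed at 0.261, Cpa1 at 0.136, Cela2a at 0.114, Cel at 0.0971 and Pnlip at 0.0382. Neighbours in this order overlapped in their ranges over the libraries: Ctrb1 ran from 0.0174 to 5.15 TPM and Gp2 from 0.23 to 1.81. In RNA from a mixed sample, fewer cells of a type and less RNA per cell cannot be told apart.

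Ctrb1, chymotrypsinogen B (ENSMUSG00000031957.6, GRCm38 chromosome 8, 111686519 to 111691010, 7 exons), separated PanIN from both other groups. It had 1, 1 and 22 counts in Healthy 1 to 3, 230, 142 and 49 in PanIN 1 to 3, and 9, 6 and 8 in Tumor 1 to 3. All PanIN libraries lay above every Healthy and Tumor library, and within PanIN the level ran from 1.11 CPM in PanIN 3 to 6.21 in PanIN 1. The group levels were 0.108 ± 0.139 CPM for Healthy, 3.66 ± 2.55 for PanIN and 0.200 ± 0.0501 for Tumor (SD, n = 3). By edgeR's quasi-likelihood test over all genes the log2 fold change of PanIN against Healthy was 4.91 (SE 0.98), which did not pass after Benjamini-Hochberg adjustment (adjusted p = 0.252). Tumor against PanIN gave -4.18 (SE 0.95, adjusted p = 1 by the same test), and Tumor against Healthy 0.73 (SE 0.91, adjusted p = 0.75). Healthy 3 held 22 of the Healthy group's 24 counts, and without it the log2 fold changes were 6.92 for PanIN and 2.73 for Tumor against Healthy. Without PanIN 1 that of Tumor against PanIN was -3.56.

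Prss2, the anionic trypsinogen (ENSMUSG00000057163.3, chromosome 6, 41521787 to 41525079), was also highest in PanIN. Its counts were 12, 4 and 36 in the Healthy libraries, 112, 62 and 64 in those of PanIN and 22, 28 and 0 in those of Tumor. The PanIN libraries again lay above all others, with PanIN 3 lowest among them at 1.45 CPM and Tumor 2 the next below at 0.665. The log2 fold change of PanIN against Healthy was 2.74 (SE 1.09, adjusted p = 0.457 by edgeR), and that of Tumor against PanIN -2.28 (SE 1.07, adjusted p = 1). Prss2 lies 21651 bp before Trbc2, a constant gene of the T cell receptor beta chain, whose level was 49.0, 19.8 and 7.17 CPM in the Healthy libraries, 47.0, 22.5 and 8.22 in those of PanIN and 101, 20.8 and 8.32 in those of Tumor. Trbc2 was highest in Tumor 1, where Prss2 stood at 0.574 CPM, and lowest in Healthy 3, where Prss2 stood at 0.439. Within PanIN the order of the libraries was the same for both, with Prss2 at 3.02, 1.60 and 1.45 CPM. Within Healthy and within Tumor the orders differed. A link between Prss2 and Trbc2 was not tested.

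Try5, a trypsinogen of the same cluster (ENSMUSG00000036938.17, chromosome 6, 41311233 to 41316841), was at or near 0 in Healthy and present in 5 of the other 6 libraries. It had 0, 1 and 1 counts in the Healthy libraries, 63, 18 and 23 in those of PanIN and 29, 15 and 0 in those of Tumor. PanIN did not overlap Healthy, while Tumor overlapped both. The pooled rate in PanIN was 67.0 times that in Healthy (95% counting interval 18.1 to 561), and the edgeR log2 fold change 5.82 (SE 1.65, adjusted p = 0.435). For Tumor against Healthy the ratio of pooled rates was 29.2 (95% counting interval 7.62 to 249) and the edgeR value 4.56 (SE 1.60, adjusted p = 0.178). The log2 fold change of PanIN against Healthy was 4.97 without PanIN 1, and that of Tumor against Healthy was 3.53 without Tumor 1 and 5.15 without Tumor 3. When the 9 trypsinogen genes, a set chosen after the files were read, were summed to 1 feature, they had 16, 5 and 37 counts in the Healthy libraries, 180, 92 and 92 in those of PanIN and 67, 43 and 0 in those of Tumor. For PanIN against Healthy the summed trypsinogens stood at a log2 fold change of 3.13 by edgeR (SE 1.13, adjusted p = 0.458). Prss2 and Try5 held 340 and 150 of these counts, Try4 31, Prss1 7 and Gm5771 4.

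Cela2a, proelastase 2A (ENSMUSG00000058579.5, chromosome 4, 141814962 to 141826160), was seen in 4 libraries. It had 0 counts in every Healthy library, 17, 15 and 0 in PanIN, and 4, 0 and 2 in Tumor. With the Healthy group set to a floor of 3 counts, Cela2a was at least 13.7-fold higher in PanIN, a bound that covers counting error only and rests on PanIN 1 and PanIN 2. It did not pass the filter on low counts. All 4 counts of Tumor 1 lay on a retained-intron transcript, as did 4.84 of the estimated counts of PanIN 1. The gene overlaps Casp9 on the opposite strand and Ctrc on its own strand, so its counts and those of Ctrc are hard to separate.

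Cpa1, procarboxypeptidase A1 (ENSMUSG00000054446.8, chromosome 6, 30639218 to 30645363), was nearly absent from Tumor. It had 9, 1 and 42 counts in the Healthy libraries, 49, 13 and 3 in those of PanIN and 0, 0 and 2 in those of Tumor. Healthy and PanIN overlapped. Tumor lay below PanIN, but PanIN 3 with 3 counts and Tumor 3 with 2 cannot be told apart. All 9 counts of Healthy 1 were assigned to a transcript with a retained intron, whereas in every other library all counts lay on the coding transcript. The pooled rate was 31.5 times higher in PanIN than in Tumor (95% counting interval 8.39 to 266; edgeR log2 fold change of Tumor against PanIN -4.80, SE 1.79, adjusted p = 1). That log2 fold change was -3.29 without PanIN 1, which held 49 of the 65 PanIN counts, and -7.68 without Tumor 3, which held both Tumor counts. PanIN against Healthy stood at 1.08 (SE 1.45, adjusted p = 0.868 by edgeR), at -0.41 without PanIN 1 and at 1.98 without Healthy 3.

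Cel, the bile salt-dependent lipase (ENSMUSG00000026818.5, chromosome 2, 28555795 to 28563403), was the member with the most even level across PanIN. Its counts were 1, 0 and 11 in Healthy, 25, 35 and 49 in PanIN, and 0 in each Tumor library. PanIN lay above all other libraries, and its order within PanIN was the opposite of that of Ctrb1: PanIN 3 was highest, at 1.11 CPM, and PanIN 1 lowest, at 0.675. With the Tumor group set to a floor of 3 counts, Cel was at least 35.3-fold lower there than in PanIN. For PanIN against Healthy the edgeR log2 fold change was 3.86 (SE 1.41, adjusted p = 0.457), and 5.69 without Healthy 3, which held 11 of the 12 Healthy counts.

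Pnlip and its cofactor Clps did not follow Cel. Pnlip (ENSMUSG00000046008.8, chromosome 19, 58652498 to 58681788) had 0, 0 and 11 counts in Healthy, 21, 0 and 2 in PanIN, and 0 in all of Tumor, and did not pass the filter. It was at least 7.44-fold lower in Tumor than in PanIN against the same floor, and 21 of the 23 PanIN counts came from PanIN 1. Clps (ENSMUSG00000024225.5, chromosome 17, 28558149 to 28560766) had 0, 0 and 44 counts in the Healthy libraries, 9, 2 and 0 in those of PanIN and 16, 0 and 19 in those of Tumor. Its highest library was Healthy 3 in CPM, at 0.536 beside 0.529 in Tumor 3, and Tumor 3 in TPM, at 0.77 beside 0.671 in Healthy 3. The groups overlapped in every comparison. The log2 fold change of PanIN against Healthy was -0.92 (SE 1.99, adjusted p = 0.929 by edgeR) with Healthy 3 and 4.98 without Healthy 3. Without PanIN 1 it was -2.73, and without PanIN 3 it was -0.32. Colipase anchors lipase to fat droplets, and Tumor 3 held 19 counts of Clps and 0 of Pnlip.

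**Figure D1:**
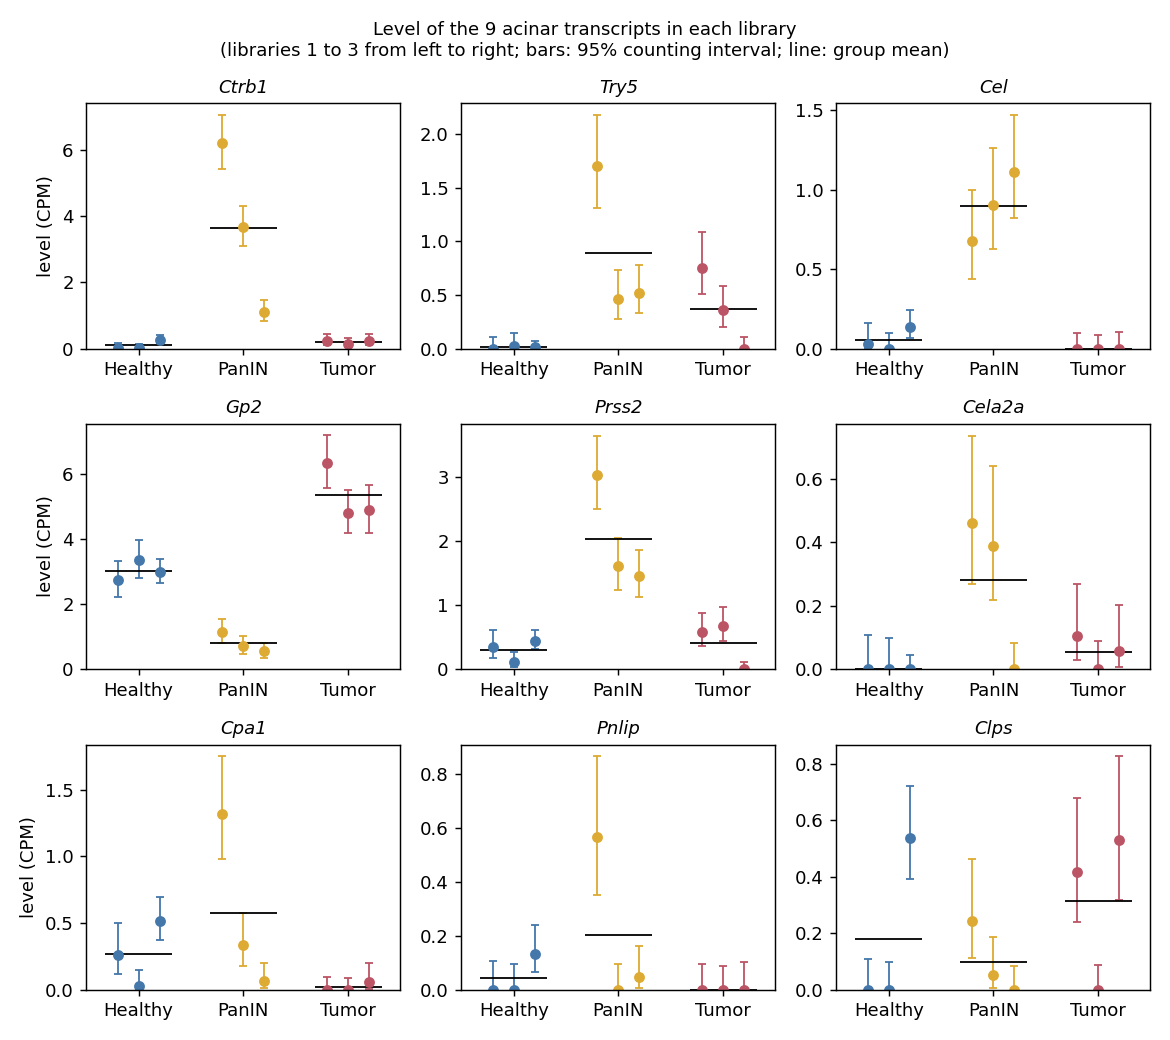
Level of each member in CPM (vertical axis, from 0, scaled separately for each gene) in the 3 libraries of each group, with 95% exact Poisson counting intervals as bars and the group mean as a line. Ctrb1, Cel and Prss2 lie higher in all PanIN libraries than in any other library, Gp2 lies lower there, and Clps overlaps in all groups.

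Gp2, the granule membrane protein (ENSMUSG00000030954.10, chromosome 7, 119442537 to 119459285, 11 exons), went the other way and was the only member present at 24 or more counts in every library. It had 94, 128 and 246 counts in the Healthy libraries, 42, 27 and 24 in those of PanIN and 244, 203 and 176 in those of Tumor. None of the groups overlapped: PanIN ran from 0.543 to 1.13 CPM, Healthy from 2.73 to 3.36 and Tumor from 4.82 to 6.36. The group levels were 3.03 ± 0.315 CPM for Healthy, 0.791 ± 0.306 for PanIN and 5.36 ± 0.867 for Tumor (SD, n = 3). By edgeR the log2 fold change was -1.94 (SE 0.45, adjusted p = 0.304) for PanIN against Healthy, 2.76 (SE 0.46, adjusted p = 0.19) for Tumor against PanIN and 0.82 (SE 0.43, adjusted p = 0.344) for Tumor against Healthy. Of the 7 genes of the M cell list edgeR called 0, and Gp2 was the 1 with an unadjusted p under 0.05 both against Healthy in PanIN and against PanIN in Tumor. In Tumor against Healthy, Anxa5, Marcksl1 and Spib were higher at that level, beside 6.82% of all tested genes. Spib, a transcription factor of M cells and plasmacytoid dendritic cells on that list, stood at 96.8, 70.2 and 47.1 CPM in PanIN against 57.6, 10.5 and 53.0 in Healthy.

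The make-up of the summed level differed between PanIN and the other groups. Gp2 took 80.3%, 94.8% and 59.6% of the members' counts in the Healthy libraries, 7.39%, 8.60% and 11.2% in those of PanIN and 75.3%, 80.6% and 85.0% in those of Tumor. The sum of all 9 members was 3.99 ± 0.906 CPM for Healthy, 9.43 ± 5.37 for PanIN and 6.73 ± 1.49 for Tumor (SD, n = 3), and PanIN 3, at 4.85 CPM, lay below every Tumor library and below Healthy 3. Without PanIN 1 the PanIN mean was 6.48 CPM. With Gp2 set aside, a choice made after its values were seen, the other 8 summed to 0.668, 0.184 and 2.04 CPM in the Healthy libraries, 14.2, 7.41 and 4.30 in those of PanIN and 2.09, 1.16 and 0.863 in those of Tumor. Every PanIN library then lay above all other libraries. Ctrb1 and Prss2 together made up most of these counts in each PanIN library, with shares of 43.7%, 49.5% and 25.8% for Ctrb1 and 21.3%, 21.6% and 33.7% for Prss2. In Healthy 3 the largest share was that of Clps, at 26.3%, and in Tumor 3 it was again Clps, at 61.3%.

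**Figure D2:**
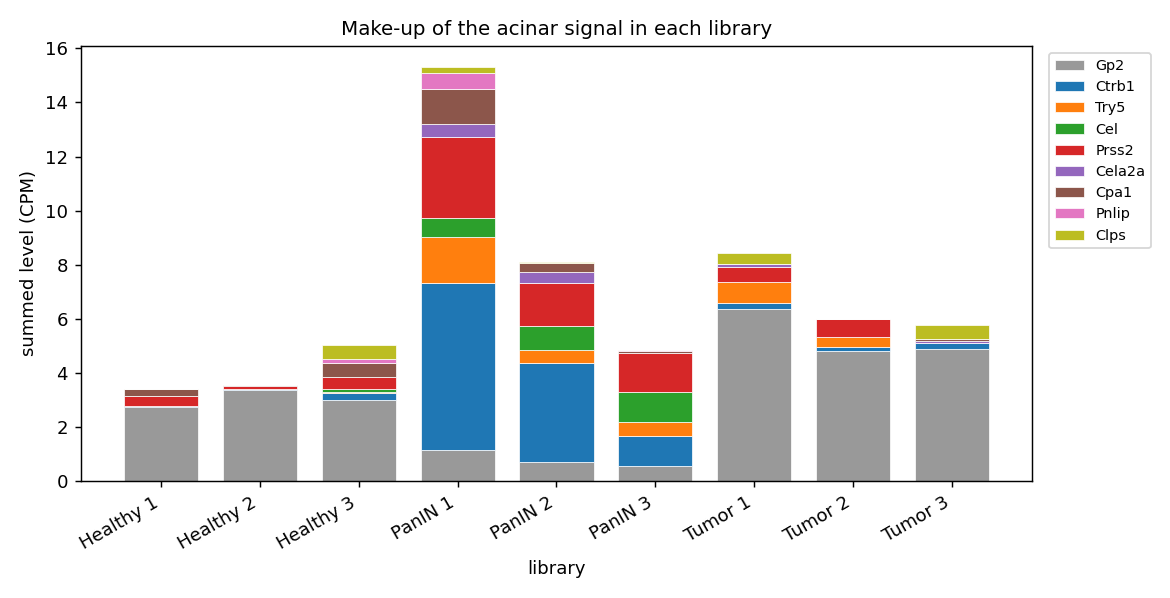
Summed level of the 9 members in CPM (vertical axis) in each of the 9 libraries (horizontal axis), stacked by gene with Gp2 in grey. Gp2 takes 59.6% or more of the counts in each Healthy and Tumor library and at most 11.2% in PanIN, where Ctrb1 and Prss2 take most of the rest.

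Over all genes, 7 of the 9 members passed the filter on low counts and were tested. Because the members were chosen with earlier results of these data known, the shares of all genes set beside them are for scale only. The filter asks for about 10 counts in 3 libraries, so a member that is near 0 in Healthy, such as Try5, passed only through the groups where it was present, and counts over the 7 are not counts over all members. For PanIN against Healthy edgeR called 0 of the 7 members at an adjusted p under 0.05, as it called 0% of the 24133 genes tested. At an unadjusted p under 0.05 it gave 4 members higher (Ctrb1, Try5, Cel and Prss2) and 1 lower (Gp2), beside 4.82% and 5.65% of all tested genes. Of all 9 members, those same 4 lay wholly above Healthy in PanIN and Gp2 wholly below, beside 5.74% and 3.77% of the 36907 genes with a count.

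Other tools called some of these members. DESeq2 with its defaults called Ctrb1 (adjusted p = 0.000155), Try5 (0.0381) and Gp2 (0.0023), beside 0.774% of the genes it tested. Limma-voom with sample quality weights called Ctrb1 (adjusted p = 0.0263), Try5 (0.0357), Cel (0.0154) and Gp2 (0.0117), where it called 14.1% of all genes, with weights of 4.32 for Healthy 1 and 3.81 for PanIN 2 against 0.17 for Healthy 2 and 0.27 for Healthy 3. With no filter on low counts, edgeR called 1 of 9, Ctrb1 (adjusted p = 0.0165), beside 0.333% of genes. The log2 fold changes of Ctrb1, Try5, Cel and Prss2 were positive, and that of Gp2 negative, under all alternatives run.

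For Tumor against PanIN edgeR called 0 of the 7, beside 0.0124% of genes. At an unadjusted p under 0.05, 1 member was higher (Gp2) and 3 lower (Ctrb1, Cel and Cpa1), beside 2.02% and 2.52% of genes. Of all 9, Gp2 lay wholly above PanIN in Tumor, and Ctrb1, Cel, Prss2 and Cpa1 wholly below, where 5.9% and 5.85% of genes with a count did so. For Cpa1 this rested on 3 counts in PanIN 3 and 2 in Tumor 3, which cannot be told apart. DESeq2 called Ctrb1 (adjusted p = 0.00429), Cel (0.0269) and Gp2 (6.52e-07), beside 0.125% of genes. Limma-voom called Gp2 (adjusted p = 0.0169), beside 0.0124% of genes, and edgeR with no filter called Gp2 (adjusted p = 0.0388), beside 0.0894%.

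For Tumor against Healthy edgeR called 0 of the 7, beside 0.0249% of genes, and DESeq2, limma-voom and edgeR with no filter also called 0, where they called 6.35%, 8.23% and 2.82% of all genes. At an unadjusted p under 0.05, edgeR gave 1 member higher (Try5) and 1 lower (Cel), beside 6.82% and 11% of genes. Gp2 was the member whose Tumor libraries all lay above Healthy, and 0 lay wholly below, beside 6.36% and 6.77% of genes with a count. The comparisons share libraries: PanIN against Healthy and Tumor against PanIN both use the PanIN libraries, so opposite signs in them are not independent.

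**Figure D3:**
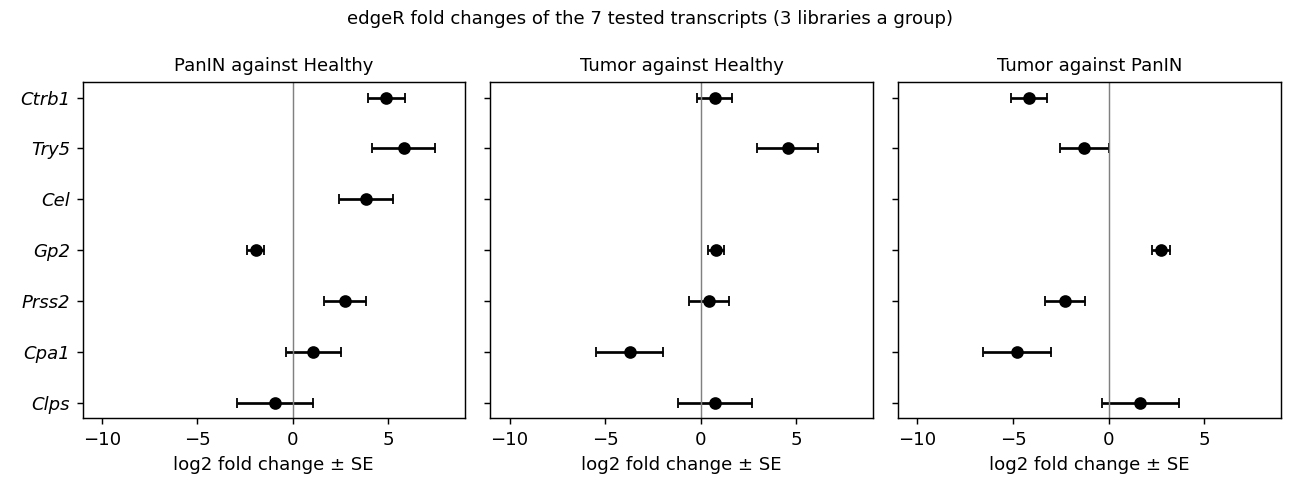
The edgeR log2 fold change (horizontal axis, points, with SE as bars) of the 7 members that passed the filter, in the 3 comparisons of 3 libraries against 3. Cel is left out of the comparisons with Tumor, where it had 0 counts, and Gp2 lies on the opposite side of 0 from Ctrb1, Try5, Cel and Prss2 in PanIN against Healthy.

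When all stages were tested at once, edgeR's F test called 0 of the 7 members, beside 0.0207% of genes, and the smallest adjusted p was 0.231, for Ctrb1 and for Gp2. At an unadjusted p under 0.05 it gave 5 members, Ctrb1, Try5, Cel, Gp2 and Prss2, beside 13.4% of genes. Without Healthy 2 it called 3 members, Ctrb1, Cel and Gp2, where it called 5.31% of all genes. With no filter on low counts it called the same 3, beside 2.32% of genes. In all 3 PanIN libraries, Ctrb1, Cel and Prss2 lay above every other library and Gp2 below, while 0.981% and 0.423% of genes with a count lay above and below all others in this way, a tally added after the values were seen.

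The title code that begins each label was the same in Healthy 1, PanIN 1 and Tumor 1, and what it stands for is not given. Within these 3 libraries, with no replicates, Ctrb1 stood at 0.0291, 6.21 and 0.235 CPM, Prss2 at 0.349, 3.02 and 0.574, Cel at 0.0291, 0.675 and 0, and Gp2 at 2.73, 1.13 and 6.36. The order of the stages for Ctrb1, Prss2, Cel and Gp2 in this set was the order of the group means. These libraries are part of those means, so the likeness is partly built in. Clps did not follow its means: it stood at 0, 0.243 and 0.417 CPM here, against means of 0.179, 0.0982 and 0.315. With a term for the shared code in the fit, edgeR called 0 members in each pairwise comparison and in the test of any stage, and Ctrb1 in PanIN against Healthy stood at a log2 fold change of 4.78 (adjusted p = 0.355).

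Other genes listed as acinar did not all share the pattern of the enzymes above. The list held 40 further genes, and whether each is specific to acinar cells was not checked. Of these, 39 were found, 6 had 0 counts in every library, and 10 passed the filter. By edgeR 0 of these 10 were called in any comparison. At an unadjusted p under 0.05 there were 0 in PanIN against Healthy. There were 3 in Tumor against Healthy (Ctrl and Dmbt1 higher, Reg2 lower), beside 6.82% of all tested genes higher and 11% lower. Dmbt1 stood at 33.1 CPM in Tumor 1. In Tumor 2 and Tumor 3 it stood at 0.0475 and 0.111, below every Healthy library. Ctrl overlapped Healthy, at 1.36, 0.428 and 4.79 CPM in the Tumor libraries against 0.494, 0.577 and 0.707. Amy2a5 and Reg1 were lower in Tumor against PanIN, beside 2.52% of all tested genes. The median log2 fold change of the 10 tested genes was 0.26 in PanIN against Healthy, where that of all tested genes was -0.1, 0.06 against -0.11 in Tumor against Healthy, and 0.33 against -0.05 in Tumor against PanIN.

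Pnliprp1, a lipase-related protein whose gene lies 47099 bp from Pnlip, had 1, 0 and 5 counts in the Healthy libraries, 45, 72 and 9 in those of PanIN and 1, 0 and 1 in those of Tumor. Reg3b, a secreted antibacterial lectin, had 6, 10 and 29 counts in PanIN and 0 in the other 6 libraries. These 2 genes, singled out after their values were seen, lay apart in PanIN as Ctrb1, Cel and Prss2 did. Ctrc, which activates and degrades trypsinogens and overlaps Cela2a, had 84, 15 and 322 counts in the Healthy libraries, 64, 49 and 73 in those of PanIN and 124, 111 and 133 in those of Tumor. Every PanIN library of Ctrc thus lay below every Tumor library, not above. The edgeR log2 fold change of Tumor against PanIN was 1.04 (SE 0.66), with an unadjusted p of 0.141. Of the estimated counts of Ctrc, 52.0 in PanIN 3, 48.9 in Tumor 2 and 55.2 in Tumor 3 lay on a processed transcript, not a coding one. Cpb1, procarboxypeptidase B, had 70 counts in PanIN 2, 3 in Tumor 2 and 0 elsewhere, and so was at 0 in PanIN 1, where the summed level of the 9 members was highest. Amylase Amy2a5 overlapped between groups, with 170 counts in PanIN 2 and 41 in Healthy 3. Tumor 1 stood apart for Tff2, at 362 counts, and Dmbt1, at 1270.

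**Figure D4:**
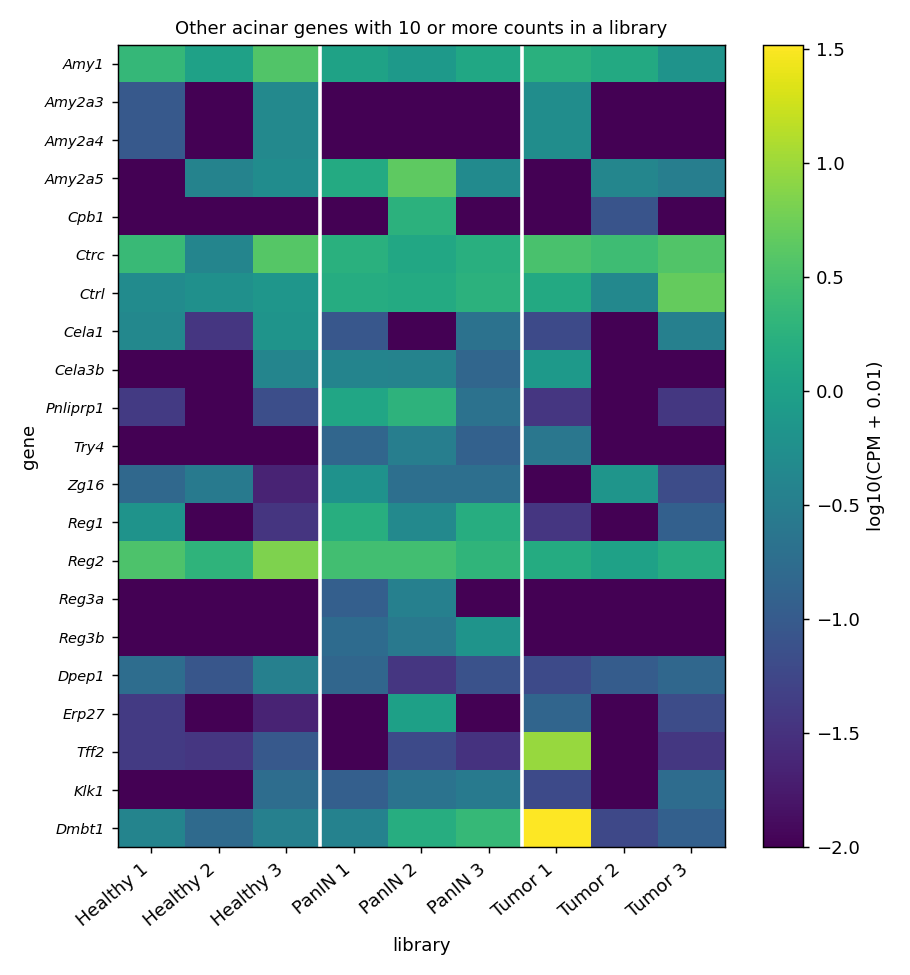
Level of 21 other genes listed as acinar, with at least 10 counts in a library, as log10(CPM + 0.01) by colour, in the 9 libraries (columns, with white lines between the groups). Pnliprp1 and Reg3b are brightest in PanIN, whereas Ctrc, Amy1 and Reg2 are present in all groups and Dmbt1 and Tff2 stand out in Tumor 1.

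The transcription factor that defines acinar cells, Ptf1a, had 0 counts in all 9 libraries. Its partner Rbpjl stood between 0.0453 CPM in PanIN 3 and 0.581 in Healthy 1, and Bhlha15, a regulator of secretory cells that plasma cells also express, between 0.32 and 1.29. Nr5a2, another regulator of acinar enzyme genes, stood at 0.0872, 0 and 0.0366 CPM in the Healthy libraries, 0.567, 0.310 and 0.204 in those of PanIN and 0.339, 0.261 and 0 in those of Tumor. Of the 10 acinar transcription factors 6 passed the filter, and edgeR called 0 of them. At an unadjusted p under 0.05, Gata4 was higher in Tumor than in either other group. Of all tested genes, 6.82% were higher at that level against Healthy and 2.02% against PanIN. Gata4 stood at 2.48 CPM in Tumor 1, at 0.523 and 0.724 in Tumor 2 and Tumor 3, and at 0.297 or less elsewhere.

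Markers of other cells moved with some of the libraries. The duct list and the epithelial list summed to 188 and 113 CPM in Tumor 1 and to at most 20.4 and 11.5 in the other 8 libraries. Spp1 made up 131 of the 188 CPM, and Krt19 and Muc1 are on both lists, so the sums are not separate. The T cell and plasma cell lists were also highest in Tumor 1, at 461 and 391 CPM. The T cell list came next in Healthy 1 and PanIN 1, at 279 and 263 CPM, which share the title code of Tumor 1. The neutrophil list was high in PanIN 2 and PanIN 3, at 43.2 and 34.9 CPM, against 3.56 in PanIN 1, the PanIN library with the most Ctrb1. B cell markers were highest in PanIN 2, at 271 CPM, and at most 92.1 in the other 8. The islet list was highest in Healthy 3, at 103 CPM, the deepest library and the Healthy library with the highest level of 6 of the 8 enzymes and cofactors, while the insulin genes Ins1 and Ins2 were at 0 in all 9 libraries. The part of these cell types in the levels of the 9 members was not tested.

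Across the 9 libraries, the protein-coding genes whose log2 CPM was most like that of the summed 9 members were Cib3 (Pearson r = 0.907), Gm3488 (0.900), Trim34b (0.896), Osgepl1 (0.888) and Dctd (0.888). The gene most like Prss2 was Nr5a2 (r = 0.889), that most like both Ctrb1 and Cel was Pawr (0.874 and 0.908), that most like Try5 was Tmem265 (0.986), and that most like Gp2 was Pop5 (0.937). For Cpa1 it was Itprid1 (r = 0.924) and for Clps Duxbl1 (0.966). These values were picked as the highest of many over the same 9 libraries and are descriptions with no test. Among the nearest protein-coding genes on either side of each member, Zfp1 and Bcar1 beside Ctrb1 stood at mean levels of 9.79 and 3.78 CPM in PanIN against 7.53 and 8.25 in Healthy. Umod, 3426 bp from Gp2, had 0 counts in every library.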

How the data were processed

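RNA of cDC1 was measured in 9 libraries, 3 per stage, with groups taken from the labels; libraries are numbered within a group only to name them. For each transcript the authors deposited an estimated count and a TPM value. Per the submitters' processing notes the tool was Salmon and the build mm10, while file names mention sailfish; its version and its use of strand: not given in the sources used here. Such tools share out reads among similar transcripts, which makes paralogs uncertain. Of 136288 transcripts, 136176 were matched to GENCODE M21 (GRCm38) and 112 were left out. Counts were summed to 53458 genes and rounded.

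Levels are CPM with TMM factors (0.83 to 1.19). Tests used edgeR 4.0.16 (R 4.3.3), one quasi-likelihood fit over all 9 libraries, on 24133 genes passing filterByExpr (minimum count 10, total 15), with Benjamini-Hochberg adjustment over all of them at 0.05. The log2 CPM used a prior count of 2. Alternatives used DESeq2 1.42.0 and limma 3.58.1 (voom with sample weights, and trend on log2(TPM + 1) and log2(TPM + 0.1)). The script was tested on simulated data. Poisson intervals (95%) and floors of 3 counts cover counting error only. Depths ran from 32150281 to 68934430 counts. Tables used Python 3.11.15 and pandas 2.3.3, figures matplotlib 3.10.9. The 9 members, all described, and the other gene lists were chosen with earlier results of these data known. Other acinar genes were eligible to be named at 10 or more counts in a library, and like genes by the highest correlations; 1 eligible gene is not reported here.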

Additional observations from a re-analysis of the deposited data

How the results depend on the processing

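edgeR with the default filter called 0 members in each comparison. In PanIN against Healthy, DESeq2 called 3, limma-voom with sample quality weights 4 and edgeR without the filter 1; in Tumor against PanIN these were 3, 1 and 1. DESeq2 was run in 3 ways: with its defaults on the genes that passed the filter, and, added after seeing the data, with its alpha at the threshold and on all genes with a count. Members called were 3 in both comparisons each time, while genes called over all comparisons were 186, 1496 and 30 (PanIN against Healthy, Tumor against Healthy, Tumor against PanIN), then 196, 1607 and 30, then 206, 1462 and 38. The test of any stage gave 3 with no filter, and 0 to 3 with 1 library left out (3 without Healthy 2). With 1 library left out the pairwise counts stayed at 0. In Tumor against Healthy 0 were called under all alternatives run. Over the fold changes, 421 values kept sign and side of the threshold, 25 passed it and 9 changed sign. Cpa1 in PanIN against Healthy was -0.41 to 1.98 with 1 library left out and -0.49 without the 3 libraries of the shared title code, a setting added after seeing the data. Clps there was 1.57 by limma-voom, 0.0339 on log2(TPM + 0.1) and -2.73 to 4.98 with 1 library left out, and in Tumor against Healthy -0.0592 without the shared title code. Prss2 in Tumor against Healthy was -1.25 by limma-voom, -0.0151 on log2(TPM + 0.1) and -0.0596 to 1.04 with 1 library left out. The cause was not tested. The mean summed level was 3.47 to 4.29 CPM in Healthy, 6.48 to 11.7 in PanIN and 5.87 to 7.22 in Tumor with 1 library left out. Cela2a and Pnlip have fold changes only with no filter or where they passed another setting's filter. The labels carry no replicate numbers to block on. When the title code entered the edgeR fit as a term, 0 members were called in each comparison and in the test of any stage, and all member fold changes kept their sign. Depth limits members under about 10 counts a library, where 0 and a few counts cannot be told apart.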
